A study of Mus musculus with 9 samples.

Results

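A list of 34 genes of the interferon and antiviral response was followed in mouse granulosa cells, which line the ovarian follicle and nurse the oocyte, in culture. The list holds known interferon-induced genes and their regulators, and 32 of the 34 were measured, out of 18193 named genes. Isg15 and Ifi44 are not analysed here. Where a gene had several probe sets (groups of probes that each report a transcript), the one with the highest mean over all 9 arrays stood for it. The donors were aged 20 to 26 days and had received equine chorionic gonadotrophin, a hormone that makes follicles grow, 48 h earlier. The cells attached overnight in medium with 1% fetal bovine serum, and were then infected for 24 h without serum. The adenovirus carried enhanced GFP in the control group, Cre recombinase in a second group and WNT4, a secreted signalling protein, in the last, with 3 Affymetrix arrays per group and about 50 infectious particles per cell. The mice were of various genotypes, floxed Ctnnb1 alleles (beta-catenin) among them. The labels used here tie no genotype to a group. All 3 groups received a virus, so no array shows cells without one. The replicates are labelled biological, without word of separate mice or cultures, and the p-values therefore measure only the spread between these samples, which may be technical.

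Interferons are secreted proteins that cells release when sensors in the cytoplasm meet foreign nucleic acid. They act through cell surface receptors and JAK kinases on transcription factors, STAT2 and IRF9 among them, which bind the interferon-stimulated response element in the promoters of antiviral genes. The induced proteins include the sensors and factors themselves, so that the response amplifies itself, effectors that block steps of the viral life cycle, regulators that end it, and chemokines that attract leukocytes. Adenoviral DNA is one of the triggers that cells can sense.

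The values are on the log2 scale, from RMA (robust multi-array average), so a difference of 1 is a 2-fold change in signal, and array medians ran from 5.44 to 5.54. Wnt4 itself had its highest group mean with the label Cre on both of its probe sets. The one with the higher mean read 9.93, 9.16 and 9.13 on the GFP arrays, 11.25, 10.47 and 10.18 on the Cre arrays and 8.97, 9.89 and 9.16 on the WNT4 arrays, a WNT4 difference from GFP of -0.07 ± 0.34. The other read 9.13, 7.57 and 8.27 on the GFP arrays, 10.01, 9.81 and 9.05 on the Cre arrays and 9.91, 9.62 and 8.36 on the WNT4 arrays, a difference of 0.97 ± 0.49 that did not pass an unadjusted p of 0.05, with overlapping groups. Ctnnb1 was no lower with the label Cre: differences from GFP were 0.04, 0.10 and 0.20 on 3 probe sets. Whether these probe sets lie within the viral transcript or the deleted part is not known here, and one that lies outside would check nothing, so groups are given as the libraries are labelled. Of the granulosa markers, Inha, the inhibin alpha subunit, lay between 12.87 and 13.96 on all arrays. Fshr, the receptor for follicle-stimulating hormone, lay between 7.11 and 8.27, and Amh was dim, between 5.84 and 6.23. Other markers of the 15 moved. In WNT4 against GFP, 3 were higher at an unadjusted limma p under 0.05 (9.12% of all probe sets): Star (2.05 ± 0.50), Cyp11a1 (1.21 ± 0.41) and Nr5a1 (0.38 ± 0.11). Lower were 2 (3.91%), Esr2 (-1.25 ± 0.36) and Foxl2 (-0.32 ± 0.11). The array WNT4 1 had the highest upper quartile, 8.0 against 7.68 to 7.87 on the others, and the largest difference between the 3' and 5' control probe sets, 1.38 for beta-actin (0.98 to 1.30 on the others) and 2.17 for Gapdh (0.95 to 1.88 on the others).

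The arrays labelled WNT4 carried the highest values of most of the antiviral genes. Of the 24 members whose values spanned at least 1 on the log2 scale, 20 were highest on WNT4 1 and 4 on WNT4 3. Among all 6888 probe sets with such a span, 42.3% were highest on WNT4 1 and 22.0% on WNT4 3. Oasl1, Dhx58, Eif2ak2, Irf7, Stat2, Xaf1 and Ifit2 reached that span only through WNT4 1, and Irf1 only through WNT4 3. Both counts thus follow in part from the filter. Of the members with a smaller span, Oas2 was highest on Cre 3, Socs1 on Cre 1, and Zbp1 and Mx1 on GFP 1. The others were highest on a WNT4 array. Relative to the GFP mean, the median over the 32 members was 1.20 on WNT4 1, 0.20 on WNT4 2 and 0.83 on WNT4 3. It was 0.14, 0.0 and 0.48 on Cre 1, 2 and 3, and between -0.04 and 0.02 on the GFP arrays. Cre 3 thus lay above WNT4 2. Above all 3 GFP arrays lay 27 members on WNT4 1 (31.6% of all probe sets), 17 on WNT4 2 (26.8%) and 23 on WNT4 3 (29.8%). On Cre 1, 2 and 3 these were 13 (19.3%), 10 (23.9%) and 21 (22.0%). The median over all probe sets stayed between -0.03 and 0.00 on every array.

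**Figure D1:**
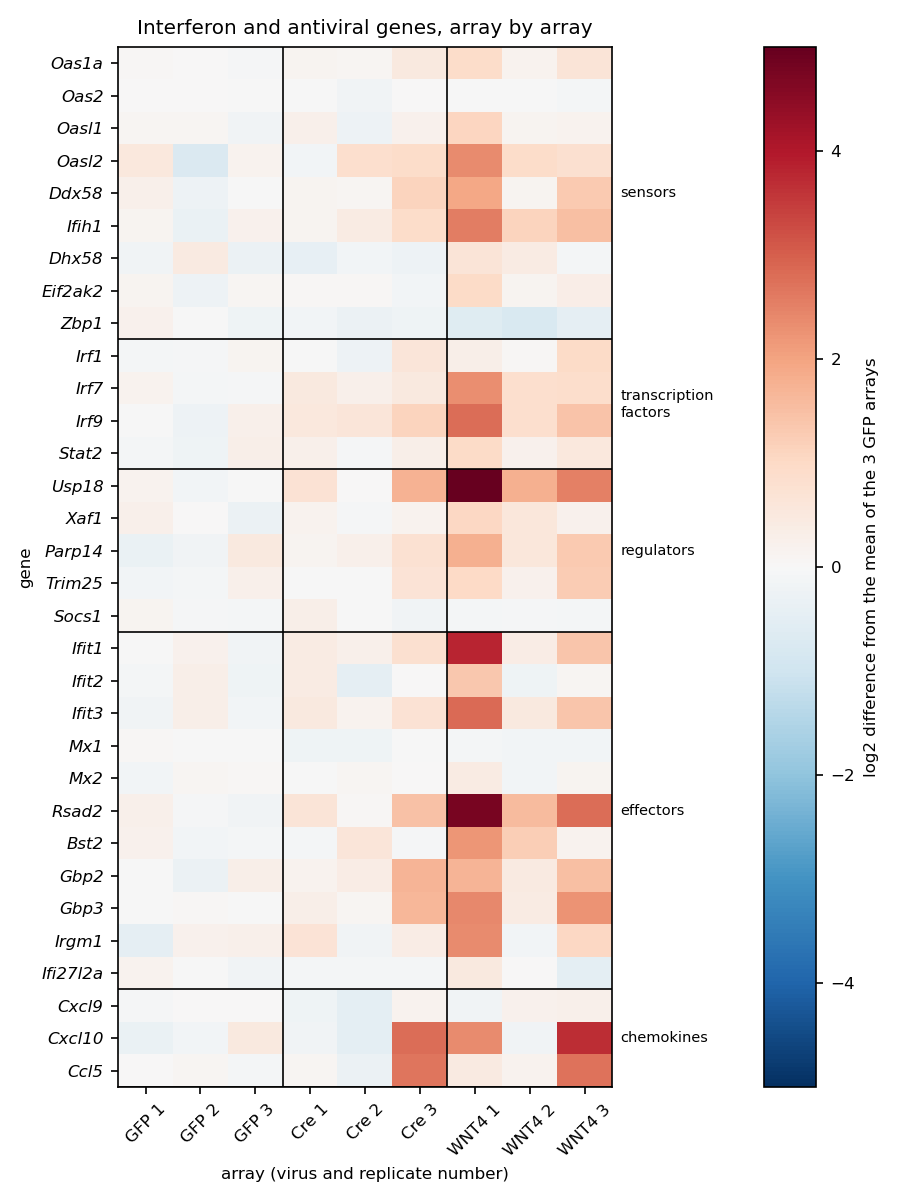
Log2 difference of each of the 32 members (rows, grouped by role) from the mean of the 3 GFP arrays, on each of the 9 arrays (columns); red is higher and blue lower. The darkest red lies on WNT4 1, for Usp18 and Rsad2, and the chemokines Cxcl10 and Ccl5 are reddest on WNT4 3 and Cre 3.

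In the comparison of WNT4 with GFP most antiviral genes had higher means with WNT4 (28 of 32), and 0 of the 32 passed limma's test after adjustment over all 45037 probe sets (0.0155% of all probe sets did). The largest differences were those of Usp18 (3.09 ± 0.74 on the log2 scale, SE, n = 3 arrays per group), which restrains interferon signalling, and Rsad2 (3.04 ± 0.69), the antiviral enzyme viperin. At an unadjusted p under 0.05, 17 members were higher, where 9.12% of all probe sets were, and 1, Zbp1, was lower, where 3.91% were. The groups did not overlap for 14 members that were higher (9.28% of all probe sets) and for 2 that were lower, Zbp1 and Mx1 (5.49%). The members' median difference was 0.95, beside 0.00 over all probe sets, and 49.6% of all probe sets lay above 0. The lowest adjusted p of a member was 0.172. Quantile normalization makes the distributions of the arrays equal. After it, 15 members were higher at an unadjusted p under 0.05 (4.61% of all probe sets) and 1 lower. Of all probe sets past that level, 70.0% were higher in the main fit and 48.0% after this step. After centring on the upper quartile the median over all probe sets was -0.15. Then 16 members were higher (4.57% of all probe sets) and 1 lower, with 30.1% of the probe sets past that level higher. After median centring 18 members were higher (10.6% of all probe sets) and 1 lower, with 80.1% of the probe sets past that level higher.

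The counts depended on single arrays. Without WNT4 2, 8 members passed the adjusted test, all higher: Oas1a, Ifih1, Irf9, Usp18, Parp14, Ifit3, Rsad2 and Gbp3 (limma, adjusted p 0.0399 to 0.0496, where 1.66% of all probe sets passed). Without WNT4 1, 0 members passed it, the members' median was 0.61, and 9 were higher at an unadjusted p under 0.05 (5.32% of all probe sets): Oas1a, Ifih1, Irf7, Irf9, Usp18, Parp14, Ifit1, Ifit3 and Rsad2. The other 8 then had differences from 0.37 (Stat2) to 1.33 (Gbp3) and unadjusted limma p from 0.0571 (Gbp3) to 0.116 (Ddx58). Without GFP 1, 2 and 3 the higher members at that level numbered 13, 12 and 13, and without WNT4 2 and WNT4 3 they numbered 19 and 14. Without GFP 2, the lowest array of Oasl2, that gene differed by 1.01 with an unadjusted limma p of 0.0816. The smallest p that an exact permutation test of 3 arrays against 3 allows is 0.1, and the p-values here come from limma, which pools the spread across probe sets.

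**Figure D2:**
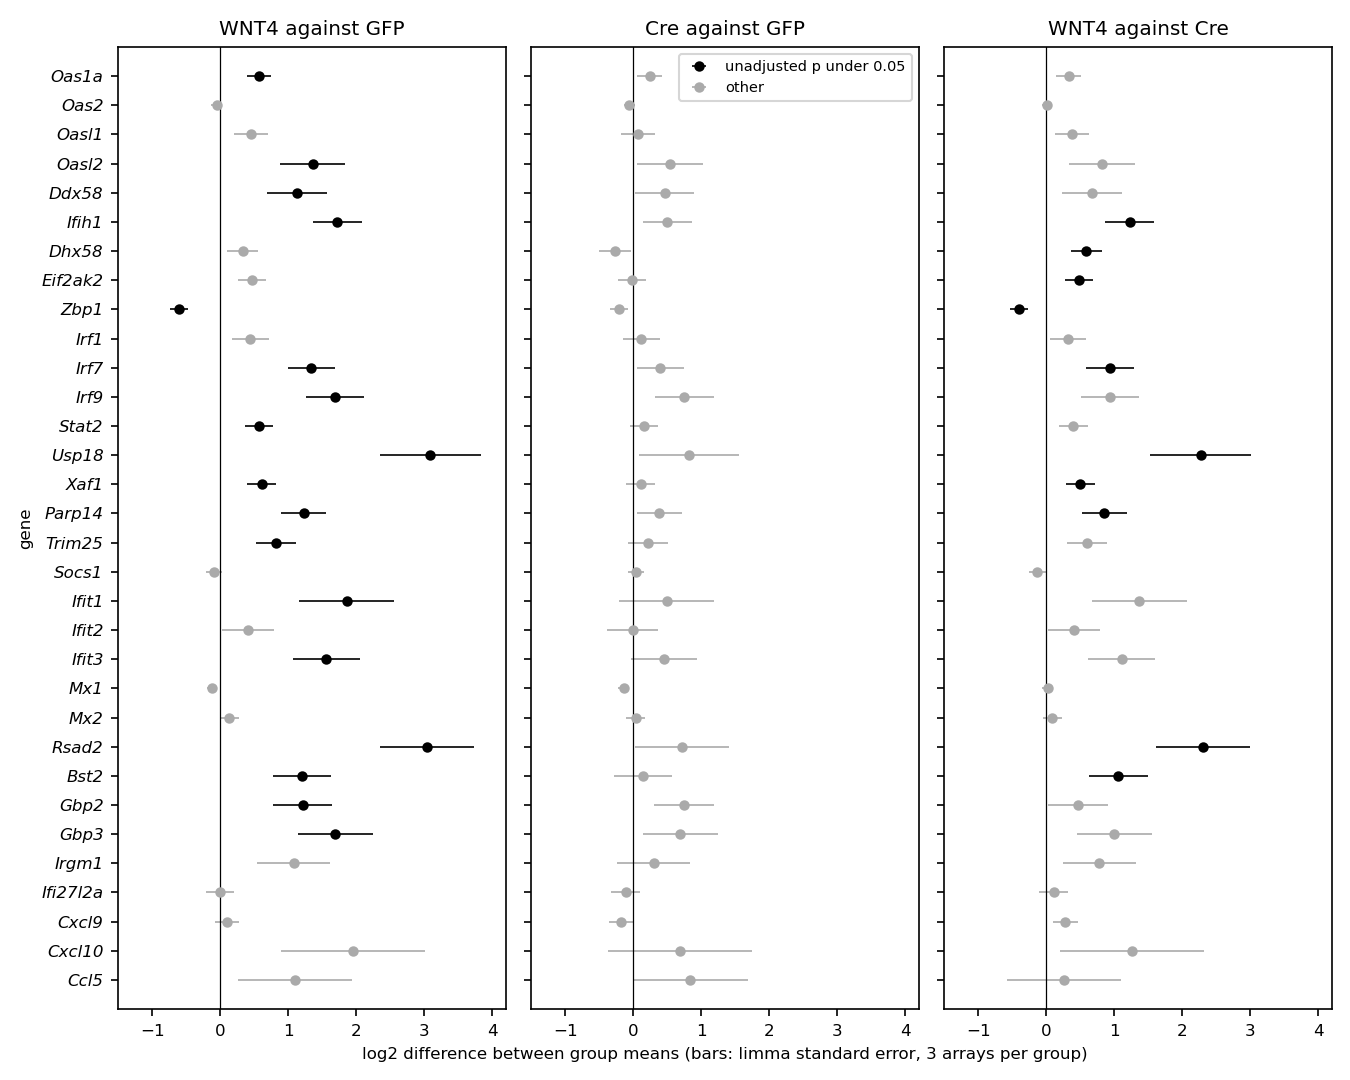
Difference between group means for the 32 members in each comparison, on the log2 scale, with limma's standard error; black marks an unadjusted p under 0.05. Against GFP most members lie right of 0 for WNT4, with Usp18 and Rsad2 farthest out, while for Cre 0 members are black.

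Promoter sequences show what many members share. Of the 32 members, 23 had a promoter in the RefSeq table (GRCm38.p6, from 250 bases before to 50 after the annotated start). The core of the interferon-stimulated response element, a pair of GAAA repeats 2 bases apart, searched on both strands, was found in 14 of the 23, against 3.99% of the 27025 genes in the table. The gamma-activated site TTCNNNGAA, which reads the same in letters on both strands, was found in 5 of the 23, against 9.55% of all genes. In Bst2 a match to the first motif overlaps one to the second. Among the 14 members with the response element core 10, and among the 9 without it 5, were higher at an unadjusted p under 0.05 in WNT4 against GFP. The following windows show the core in capitals (in Irf1 the gamma-activated site instead), read 5′ to 3′ on the gene's own strand and ending before the start. They were chosen because Rsad2, Ifit1, Ifit3 and Gbp3 stood highest on WNT4 1, Cxcl10 and Irf1 highest on WNT4 3, and Socs1 differed little. They lie at chr12:26456533-26456612 (minus strand), chr19:34640745-34640843 and chr19:34583333-34583446 (plus strand), chr3:142559959-142560043 (plus strand), chr5:92349063-92349139 (minus strand), chr11:53769884-53769962 (plus strand) and chr16:10785574-10785659 (minus strand).
Rsad2: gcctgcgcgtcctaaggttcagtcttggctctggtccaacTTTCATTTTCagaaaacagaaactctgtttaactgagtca
Ifit1: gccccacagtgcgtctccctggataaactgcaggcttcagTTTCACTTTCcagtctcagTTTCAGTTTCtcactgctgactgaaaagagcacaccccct
Ifit3: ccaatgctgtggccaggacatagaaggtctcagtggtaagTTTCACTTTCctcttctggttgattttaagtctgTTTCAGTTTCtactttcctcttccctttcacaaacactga
Gbp3: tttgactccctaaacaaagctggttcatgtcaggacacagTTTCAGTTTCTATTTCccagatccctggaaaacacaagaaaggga
Cxcl10: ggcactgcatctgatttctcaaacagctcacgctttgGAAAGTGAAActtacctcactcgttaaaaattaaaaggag
Irf1: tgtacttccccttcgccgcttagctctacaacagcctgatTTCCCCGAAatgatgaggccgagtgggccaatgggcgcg
Socs1: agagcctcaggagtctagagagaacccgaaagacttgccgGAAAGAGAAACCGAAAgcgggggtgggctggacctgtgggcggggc
The single match of Rsad2 starts 120 bases upstream of the start and that of Cxcl10 213 bases upstream, while Ifit1 holds matches 104 and 85 bases upstream. In Gbp3 and Socs1 a pair of matches overlaps, which gives a run of GAAA repeats on one strand. A match is a description of letters, and no match says only that these letters are not in this window.

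Among the sensors, Ifih1 and Zbp1 separated WNT4 from both other groups, in opposite directions. Ifih1, the cytoplasmic helicase MDA5 that binds long double-stranded RNA, read 7.70, 7.22 and 7.77 on the GFP arrays, 7.71, 7.98 and 8.50 on the Cre arrays and 10.14, 8.66 and 9.06 on the WNT4 arrays. Every WNT4 array lay above every GFP and Cre array, with a difference from GFP of 1.72 ± 0.36 (3.3-fold) and from Cre of 1.23 ± 0.36. Ddx58, the related helicase RIG-I, which recognises RNA ends, read 7.24, 6.75 and 6.98 on the GFP arrays, 7.13, 7.09 and 8.12 on the Cre arrays and 8.94, 7.13 and 8.30 on the WNT4 arrays. Here WNT4 2 lay among the GFP arrays and Cre 3 above them, and the difference was 1.13 ± 0.44 (unadjusted p = 0.0307). The other 2 probe sets of Ddx58 read between 4.46 and 5.55 and differed by 0.00 and 0.25. Dhx58, the regulatory helicase LGP2, was dim and read 5.35, 5.96 and 5.23 on the GFP arrays, 5.12, 5.37 and 5.24 on the Cre arrays and 6.16, 5.93 and 5.42 on the WNT4 arrays. Its groups overlapped against GFP (0.33 ± 0.23), while against Cre all WNT4 arrays were higher by 0.59 ± 0.23 (unadjusted p = 0.0292). Its 2 dimmer probe sets differed from GFP by -0.14 and 0.15. Eif2ak2, the kinase PKR that stops translation, had 3 probe sets with differences from GFP of 0.24, 0.47 and 0.74. On the one with the highest mean it read 5.72, 5.32 and 5.66 on the GFP arrays, 5.64, 5.61 and 5.42 on the Cre arrays and 6.53, 5.70 and 5.89 on the WNT4 arrays, with only WNT4 1 well above the rest.

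The oligoadenylate synthetase family makes the second messenger that activates RNase L. Oas1a read 6.62, 6.60 and 6.51 on the GFP arrays, 6.72, 6.67 and 7.06 on the Cre arrays and 7.48, 6.74 and 7.22 on the WNT4 arrays, so that all Cre and all WNT4 arrays lay above all GFP arrays, with differences of 0.24 ± 0.18 for Cre and 0.57 ± 0.18 for WNT4. Both comparisons use the same GFP arrays. Oasl2, a synthetase-like family member, read 7.65, 6.41 and 7.31 on the GFP arrays, 6.98, 7.96 and 8.06 on the Cre arrays and 9.47, 8.06 and 7.93 on the WNT4 arrays. Its WNT4 arrays lay above all GFP arrays, by 1.36 ± 0.48, and overlapped with Cre 2 and Cre 3. Oasl1, a synthetase-like protein that limits Irf7 translation, read 5.42, 5.44 and 5.14 on the GFP arrays, 5.58, 5.08 and 5.55 on the Cre arrays and 6.40, 5.46 and 5.50 on the WNT4 arrays, with WNT4 1 alone clearly higher. Oas2 stayed between 6.34 and 6.55 on all 9 arrays.

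Zbp1, which binds left-handed nucleic acid and can trigger cell death, went the other way. It read 6.51, 6.28 and 6.08 on the GFP arrays, 6.14, 6.01 and 6.08 on the Cre arrays and 5.68, 5.52 and 5.83 on the WNT4 arrays, and its WNT4 arrays lay below all other arrays, with differences of -0.61 ± 0.13 from GFP (unadjusted p = 0.00101) and -0.40 ± 0.13 from Cre. Its other probe set differed from GFP by -0.32 with overlapping groups.

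Of the 4 transcription factors, Irf7 separated every group, Irf9 separated GFP from Cre and WNT4, and Irf1 followed other arrays. Irf7, which drives type I interferon transcription, read 6.04, 5.78 and 5.81 on the GFP arrays, 6.35, 6.12 and 6.35 on the Cre arrays and 8.20, 6.71 and 6.74 on the WNT4 arrays. The groups stood in the order GFP, Cre, WNT4 with no overlap between any pair, although the Cre difference of 0.40 ± 0.35 did not pass at an unadjusted p of 0.283, and that of WNT4 was 1.34 ± 0.35 (2.52-fold). Irf9, the DNA-binding partner of Stat2, read 5.97, 5.75 and 6.27 on the GFP arrays, 6.51, 6.62 and 7.10 on the Cre arrays and 8.80, 6.84 and 7.42 on the WNT4 arrays. All Cre and WNT4 arrays lay above the GFP arrays, by 0.75 ± 0.43 and 1.69 ± 0.43. Cre 3, at 7.10, exceeded WNT4 2, at 6.84. Stat2 was dim, read 4.76, 4.63 and 5.14 on the GFP arrays, 5.10, 4.78 and 5.14 on the Cre arrays and 5.80, 5.06 and 5.37 on the WNT4 arrays, and differed by 0.57 ± 0.21 with overlapping groups. Irf1, a factor induced strongly by interferon gamma, read 8.64, 8.69 and 8.88 on the GFP arrays, 8.73, 8.49 and 9.36 on the Cre arrays and 9.04, 8.80 and 9.70 on the WNT4 arrays. Its highest arrays were WNT4 3 and Cre 3, and the WNT4 and GFP arrays overlapped (0.44 ± 0.27, unadjusted p = 0.131).

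Regulators of the response held the largest difference of the list. Usp18, the protease that removes ISG15 from proteins and blocks the interferon receptor, read 5.22, 4.90 and 5.04 on the GFP arrays, 5.78, 5.06 and 6.78 on the Cre arrays and 10.02, 6.84 and 7.56 on the WNT4 arrays. Each WNT4 array was above all 6 others, the mean 8.51-fold above that of GFP, and Cre 3 came close to WNT4 2. WNT4 1 alone stood far above the other WNT4 arrays. Parp14, an ADP-ribosyltransferase, read 5.42, 5.54 and 6.24 on the GFP arrays, 5.87, 6.0 and 6.48 on the Cre arrays and 7.53, 6.30 and 7.06 on the WNT4 arrays and differed from GFP by 1.23 ± 0.33, while its other probe set stayed at 4.49 to 4.85. Trim25, a ubiquitin ligase that activates RIG-I, read 11.06, 11.12 and 11.45 on the GFP arrays, 11.19, 11.20 and 11.90 on the Cre arrays and 12.21, 11.41 and 12.47 on the WNT4 arrays. It was highest on WNT4 3, and WNT4 2 lay just below GFP 3. It differed from GFP by 0.82 ± 0.29, another probe set by 0.89 ± 0.29 and the dim one by 0.50 ± 0.26. Xaf1, a proapoptotic interferon-induced protein, read 7.55, 7.34 and 7.03 on the GFP arrays, 7.50, 7.24 and 7.50 on the Cre arrays and 8.34, 7.86 and 7.54 on the WNT4 arrays and differed by 0.61 ± 0.21, while its other probe set differed by -0.20 ± 0.16. Socs1, which inhibits JAK kinases, stayed between 5.0 and 5.44 on all arrays and differed by -0.09 ± 0.12.

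**Figure D3:**
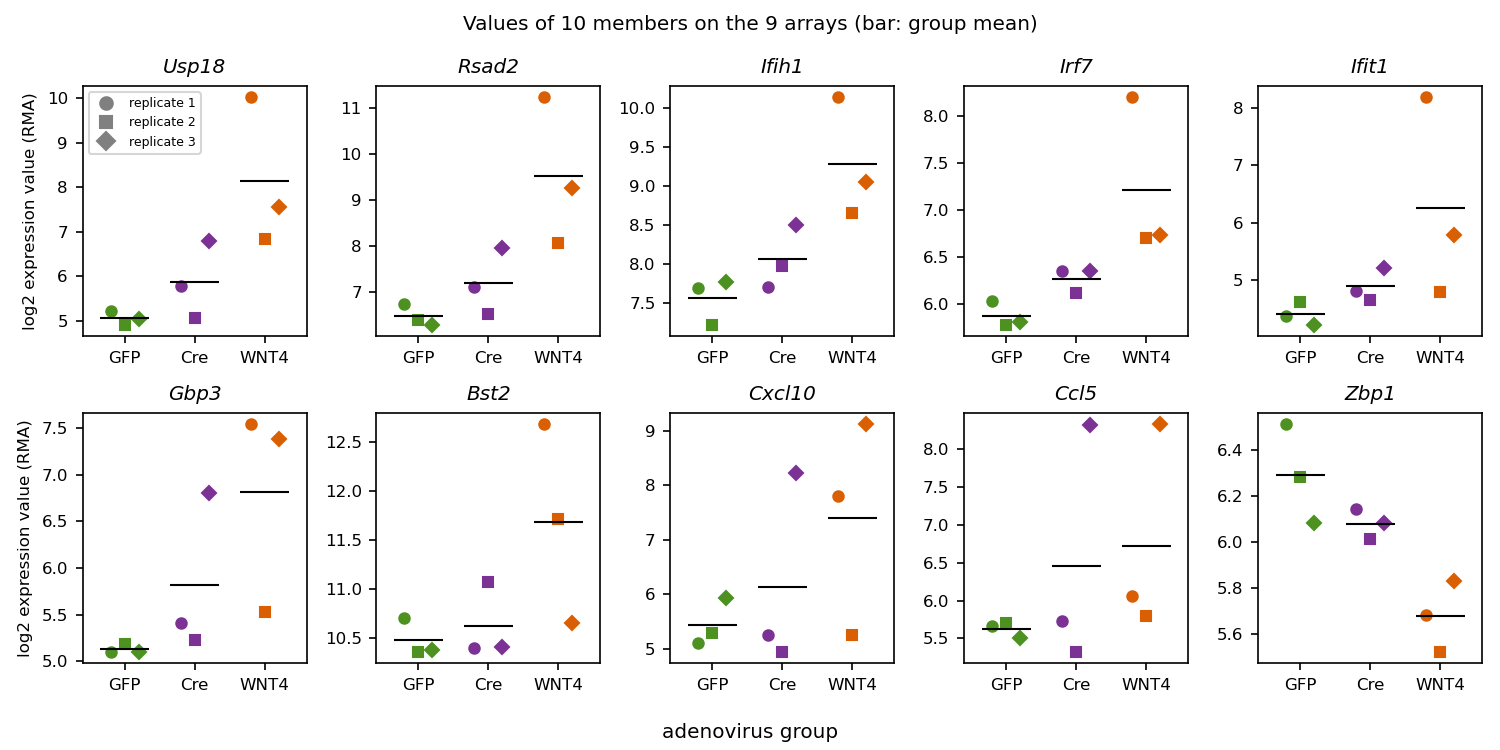
Log2 expression values (RMA) of 10 members on each array, by virus group and replicate number; black lines are group means and each gene has its own vertical scale. Usp18, Rsad2, Irf7 and Ifit1 peak on WNT4 1, Cxcl10 and Ccl5 on the arrays numbered 3 of Cre and WNT4, and Zbp1 is lowest on the WNT4 arrays.

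Effectors that act on viral RNA and protein synthesis were highest on WNT4 1. Rsad2, whose promoter window is given above, read 6.74, 6.40 and 6.28 on the GFP arrays, 7.10, 6.53 and 7.95 on the Cre arrays and 11.22, 8.05 and 9.25 on the WNT4 arrays. The WNT4 arrays lay above all others, by 3.04 ± 0.69 (8.2-fold) against GFP and 2.31 ± 0.69 against Cre. Its other 2 probe sets gave smaller differences from GFP, 2.02 ± 0.61 and 0.98 ± 0.46, and were also highest on WNT4 1. Ifit1, which binds viral RNA lacking the host cap modification, read 4.37, 4.62 and 4.21 on the GFP arrays, 4.81, 4.65 and 5.20 on the Cre arrays and 8.19, 4.79 and 5.79 on the WNT4 arrays. Its difference from GFP was 1.86 ± 0.70, with WNT4 1 far above the rest and WNT4 2 below Cre 1 and Cre 3. Ifit3, a partner of Ifit1, read 5.51, 5.95 and 5.55 on the GFP arrays, 6.15, 5.84 and 6.38 on the Cre arrays and 8.51, 6.15 and 7.05 on the WNT4 arrays and differed by 1.56 ± 0.49 with no overlap against GFP. Ifit2, of the same family, read 5.47, 5.86 and 5.36 on the GFP arrays, 5.97, 5.12 and 5.58 on the Cre arrays and 6.90, 5.33 and 5.68 on the WNT4 arrays, and only WNT4 1 stood clear of the GFP range.

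Membrane and vacuole effectors divided in their pattern. Bst2, tetherin, which holds budding virus at the cell surface, read 10.71, 10.36 and 10.38 on the GFP arrays, 10.40, 11.07 and 10.41 on the Cre arrays and 12.68, 11.72 and 10.66 on the WNT4 arrays. It was high on WNT4 1 and WNT4 2, while WNT4 3 lay below GFP 1 and Cre 2 (1.20 ± 0.43 against GFP, unadjusted p = 0.0222). The guanylate-binding proteins Gbp2 and Gbp3, large GTPases that attack pathogen vacuoles, instead were high on Cre 3 and WNT4 3 as well as WNT4 1. Gbp2 read 6.51, 6.25 and 6.84 on the GFP arrays, 6.71, 6.92 and 8.24 on the Cre arrays and 8.25, 6.97 and 8.02 on the WNT4 arrays, and differed by 1.21 ± 0.44. This probe set is of a kind that can share sequence with related genes, and the other Gbp2 probe set differed by 1.21 ± 0.39. Gbp3 read 5.10, 5.19 and 5.10 on the GFP arrays, 5.41, 5.23 and 6.80 on the Cre arrays and 7.54, 5.53 and 7.38 on the WNT4 arrays, and differed by 1.69 ± 0.55, with Cre 3 above WNT4 2. Irgm1, an immunity-related GTPase of autophagy, read 6.98, 7.66 and 7.70 on the GFP arrays, 8.13, 7.29 and 7.82 on the Cre arrays and 9.81, 7.30 and 8.49 on the WNT4 arrays. Its WNT4 2 value lay within the GFP range, and the difference of 1.08 ± 0.54 did not pass (unadjusted p = 0.0779).

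The remaining effectors spanned less than 1 over the 9 arrays. The dynamin-like GTPases Mx1 and Mx2 stayed between 4.07 and 4.32 and between 5.27 and 5.82. Ifi27l2a ran from 4.88 on WNT4 3 to 5.84 on WNT4 1. Mx1 differed by -0.12 ± 0.08, with its WNT4 arrays below its GFP arrays by a narrow gap. In all, 12 of the 32 members had a mean under 6, close to the array medians, and detection calls were not used here, so such values may be at the arrays' background.

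Among the chemokines, Cxcl10 and Ccl5 were highest on WNT4 3 and next highest on Cre 3. Cxcl10, which attracts activated T cells through CXCR3, read 5.11, 5.29 and 5.93 on the GFP arrays, 5.25, 4.94 and 8.22 on the Cre arrays and 7.80, 5.26 and 9.12 on the WNT4 arrays. It was high on WNT4 3, Cre 3 and WNT4 1, and WNT4 2 lay among the GFP arrays, so that neither difference from GFP passed (1.95 ± 1.06 for WNT4, 0.69 ± 1.06 for Cre). Ccl5, the T cell and monocyte chemokine RANTES, read 5.66, 5.71 and 5.51 on the GFP arrays, 5.73, 5.32 and 8.32 on the Cre arrays and 6.06, 5.79 and 8.33 on the WNT4 arrays. Cre 3 and WNT4 3 stood together, far above every other array, with differences from GFP of 1.10 ± 0.84 for WNT4 and 0.84 ± 0.84 for Cre. Cxcl9, another CXCR3 ligand, was flat, between 5.14 and 5.88. Leukocyte markers were measured beside the chemokines: 7 of 17 on Cre 3 (22.0% of all probe sets) and 9 of 17 on WNT4 3 (29.8%) lay above all GFP arrays, against 0 of 17 on WNT4 1 (31.6%) and 2 of 17 on WNT4 2 (26.8%). Their mean level ran from 6.15 to 6.46 over the GFP arrays, 6.04 to 6.63 over Cre and 5.77 to 6.51 over WNT4. The list was not uniform. Cd14, a monocyte receptor, read 6.01, 6.44 and 6.47 on the GFP arrays, 5.75, 6.05 and 8.03 on the Cre arrays and 6.15, 6.08 and 8.0 on the WNT4 arrays, and Csf1r, the macrophage growth factor receptor, 7.01, 6.80 and 7.87 on the GFP arrays, 6.83, 7.05 and 8.44 on the Cre arrays and 6.03, 6.60 and 8.23 on the WNT4 arrays. Laptm5, a lysosomal protein of blood cells, went the other way and read 11.0, 10.64 and 10.69 on the GFP arrays, 10.90, 10.17 and 10.61 on the Cre arrays and 6.98, 10.22 and 8.76 on the WNT4 arrays, the only marker of the list past an unadjusted p of 0.05 in WNT4 against GFP (-2.12 ± 0.66). Its probe set read above every other marker of the list on the GFP arrays, and whether it reports Laptm5 alone was not tested. Tyrobp, a myeloid signalling adaptor, and Lyz2, the macrophage lysozyme, exceeded the highest GFP array on neither Cre 3 nor WNT4 3. The T cell marker Cd3e stayed between 6.44 and 7.06. The part of these cells in the chemokine values was not tested, and on bulk arrays more cells of a type and more RNA per cell cannot be told apart.

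Oocyte markers, and part of the theca and stroma markers, were high on WNT4 1. Of 11 oocyte markers 10 lay above all GFP arrays there (31.6% of all probe sets), with a list median of 1.46 over the GFP mean. On Cre 1, 8 of 11 did (19.3% of all probe sets), with a median of 0.92, where the antiviral members' median was 0.14. The mean level of the oocyte list ran from 6.17 to 6.99 over GFP, 6.33 to 7.27 over Cre and 6.47 to 7.80 over WNT4. Of 12 theca and stroma markers 8 lay above all GFP arrays on WNT4 1 (31.6% of all probe sets), 1 on WNT4 2 (26.8%) and 4 on WNT4 3 (29.8%), with mean levels of 7.17 to 7.78, 7.30 to 7.76 and 7.16 to 8.17 over GFP, Cre and WNT4. Dcn read 9.50 on WNT4 1 and 6.41 to 7.10 on the other arrays. Lum read 7.33 there and 4.65 to 4.91 elsewhere, and Pdgfra 8.16 and 5.67 to 6.64. The smooth muscle genes Acta2 and Tagln, and Col1a1, were instead lowest of all arrays on WNT4 1, at 10.81, 8.53 and 5.73. Endothelial markers had mean levels between 4.87 and 5.15 on all arrays. The part of these cells and of the 3' to 5' difference in the antiviral values was not tested, and the values without WNT4 1 are those given above.

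Differences of Cre from GFP in these genes were smaller than those of WNT4 from GFP in the median. The members' median difference was 0.23 (-0.02 over all probe sets), 24 of 32 lay above 0, where 44.7% of all probe sets did, 0 of 32 passed the adjusted test (0.0% of all probe sets), and 0 passed an unadjusted p under 0.05 in either direction, where 1.01% of all probe sets were higher and 1.22% lower. When only the 6 Cre and GFP arrays were fitted, 4 passed that level, all higher (1.69% of all probe sets were higher). The arrays did not overlap for 5 higher members, Oas1a, Irf7, Irf9, Ifit1 and Gbp3 (2.98% of all probe sets), and for 0 lower ones (3.04%). Their differences lay between 0.24 and 0.75. On Cre 3, 6 members were at least 1 above the highest GFP array (0.775% of all probe sets): Usp18, Rsad2, Gbp2, Gbp3, Cxcl10 and Ccl5. On Cre 1 and Cre 2 there were 0 such members (0.0955% and 0.02%). The same count was 16 on WNT4 1 (1.87%), 3 on WNT4 2 (0.0999%), namely Usp18, Rsad2 and Bst2, and 12 on WNT4 3 (1.34%).

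WNT4 and Cre were also compared directly. The members' median difference was 0.55 (0.02 over all probe sets) and 30 of 32 lay above 0, where 56.8% of all probe sets did. Of the 32, 0 passed the adjusted limma test (lowest adjusted p = 0.773, 0.0% of all probe sets), and 9 were higher at an unadjusted p under 0.05 (5.07% of all probe sets): Ifih1, Dhx58, Eif2ak2, Irf7, Usp18, Xaf1, Parp14, Rsad2 and Bst2. Zbp1 alone was lower at that level (1.17%). The 7 members Ifih1, Dhx58, Eif2ak2, Irf7, Usp18, Xaf1 and Rsad2 were higher with no overlap (5.38%), and 1, Zbp1, was lower (2.85%). The count at an unadjusted p under 0.05 moved with single arrays, as did the share of all probe sets. Without WNT4 1, without Cre 1 and without Cre 2, 4 members were higher (2.34%, 3.03% and 5.19% of all probe sets). Without WNT4 2 they numbered 16 (8.59%), and with only the WNT4 and Cre arrays fitted 5 (3.65%). In each of these runs 1 member was lower. With the replicate number as a block, 13 members were higher (5.91%) and 1 lower. The comparison shares its arrays with both others and is not separate evidence.

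The wider pathway was read from lists of other genes, whose counts stand beside 9.12% of all probe sets higher and 3.91% lower at an unadjusted p under 0.05 in WNT4 against GFP. Of 9 measured interferon genes 0 passed even an unadjusted p under 0.05 in WNT4 against GFP, and the lowest p belonged to Ifng (0.13 ± 0.11), Ifna1 (-0.14 ± 0.14) and Ifna11 (-0.08 ± 0.09). Ifnb1, the interferon most cells make first, stayed between 4.60 and 4.94. The mean of the ligand list was between 4.63 and 4.89 on all arrays, below the array medians. Of 9 receptor and JAK-STAT genes 3 were higher at that level, Ifnar2, a chain of the type I receptor (0.50 ± 0.15), and the receptor kinases Tyk2 (0.41 ± 0.12) and Jak1 (0.41 ± 0.17). Of 16 genes that link sensors to interferon transcription 2 were higher, the adaptor Myd88 (0.45 ± 0.15) and the kinase Tbk1 (0.51 ± 0.21), and 2 lower, the DNA-sensing adaptor Sting1 (-0.31 ± 0.13) and Tlr7, an endosomal RNA sensor (-0.24 ± 0.10). Cgas, the enzyme upstream of Sting1, differed by 0.08 ± 0.12. The higher counts of this list and of the negative regulators are near the share of all probe sets.

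Of 12 negative regulators 2 were higher, Cyld, a deubiquitinase (0.65 ± 0.23), and Nlrx1, a mitochondrial inhibitor of RIG-I signalling (0.31 ± 0.13). Samhd1, which depletes nucleotides and limits the interferon response, was lower (-1.42 ± 0.43). It read 12.06, 12.29 and 11.80 on the GFP arrays, 12.24, 11.65 and 11.50 on the Cre arrays and 9.82, 11.72 and 10.35 on the WNT4 arrays, lowest on WNT4 1 and WNT4 3, on a probe set that can share sequence with other genes. Of 49 other interferon-induced genes 25 were higher and 0 lower at an unadjusted p under 0.05 in WNT4 against GFP, 4 and 0 in Cre against GFP (1.01% and 1.22% of all probe sets), and 16 and 1 in WNT4 against Cre (5.07% and 1.17%). The lowest p belonged to Tap1, the peptide transporter of antigen presentation (1.36 ± 0.20), Psmb8, an immunoproteasome subunit (1.15 ± 0.17), and Pml, the nuclear body protein (0.72 ± 0.14). Tap1 read 7.83, 7.46 and 7.63 on the GFP arrays, 8.18, 8.19 and 8.29 on the Cre arrays and 9.49, 8.83 and 8.68 on the WNT4 arrays, with GFP, Cre and WNT4 in separate ranges. Of these lists 0 genes passed the adjusted limma test in any comparison, the lowest adjusted p being 0.1.

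**Figure D4:**
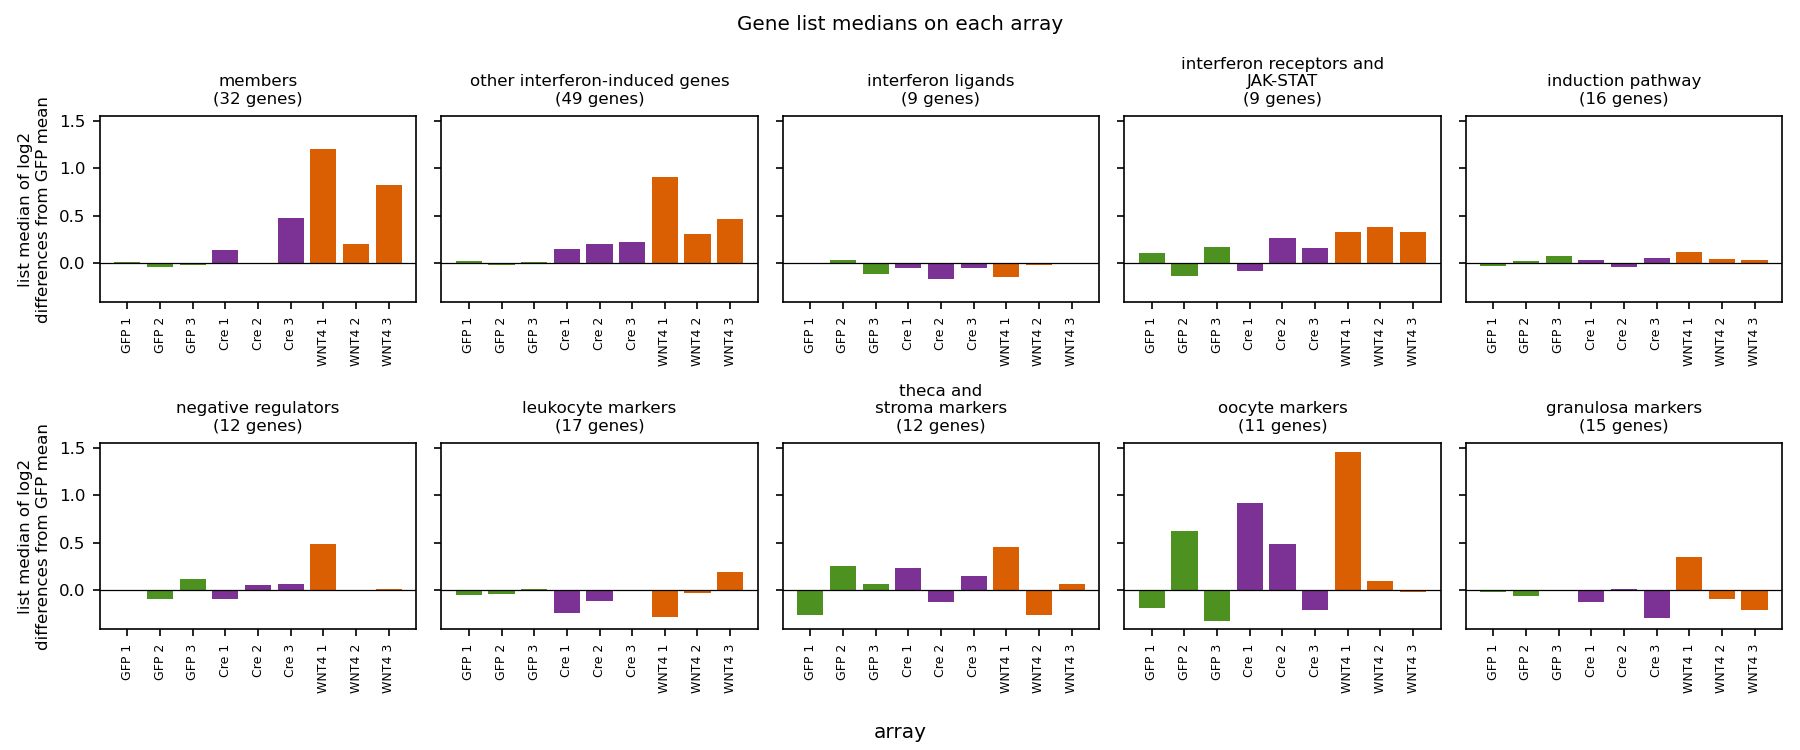
Median log2 difference from the GFP mean over the genes of each list (bars start at 0), on each array: GFP green, Cre purple, WNT4 orange. Members and other interferon-induced genes are highest on WNT4 1, at 1.20 and 0.91, interferon ligands stay between -0.16 and 0.04, and oocyte markers reach 1.46 on WNT4 1 and 0.92 on Cre 1.

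The genes outside the list with the array pattern most like the members' mean were Rtp4, Atf3, Dnajb9, Phf3 and Trim30a, with Pearson correlations over the 9 arrays of 0.998, 0.993, 0.99, 0.989 and 0.987 (0.97 to 0.993 without WNT4 1). They were picked as the 5 best of all genes, so the values are a description, and all points share the same arrays. Rtp4 and Trim30a are also among the other interferon-induced genes above. Rtp4, a chaperone of receptor transport, read 7.28, 7.09 and 7.35 on the GFP arrays, 7.60, 7.46 and 8.95 on the Cre arrays and 11.18, 8.34 and 9.50 on the WNT4 arrays. Trim30a, an interferon-induced ubiquitin ligase, read 5.19, 5.33 and 5.54 on the GFP arrays, 5.54, 5.76 and 6.64 on the Cre arrays and 8.78, 6.12 and 7.15 on the WNT4 arrays. Atf3, a stress-induced transcription factor, read 6.59, 6.43 and 6.85 on the GFP arrays, 6.78, 6.45 and 7.81 on the Cre arrays and 9.42, 7.12 and 8.39 on the WNT4 arrays, and Dnajb9, a chaperone of the endoplasmic reticulum, 9.73, 9.70 and 9.77 on the GFP arrays, 9.98, 9.94 and 10.54 on the Cre arrays and 12.18, 10.26 and 11.41 on the WNT4 arrays. All of them were highest on WNT4 1 and next highest on WNT4 3, with Cre 3 above WNT4 2.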

How the data were processed

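RNA of mouse granulosa cells was measured on 9 Affymetrix mouse arrays. The authors deposited 1 table of log2 values, for which the submitters' processing notes name RMA without a version. The 64 control probe sets were left out, which left 45037, of which 34945 carried a single gene symbol in the platform annotation. Depth has no meaning here, and the number of arrays limits the precision.

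Groups were compared with limma 3.58.1 (R 4.3.3), two-sided, over all 9 arrays with no covariate (6 residual and 2.8 prior degrees of freedom) and Benjamini-Hochberg adjustment over all probe sets. The code was tested on simulated data. The members and lists were chosen with earlier results of these data known. Named genes are all measured members, with every array value where they span at least 1, up to 3 genes of lowest p from each pathway list and the 5 genes most like the members' mean; others were chosen after their values were seen.

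Replicate numbers recur in the groups. Correlations of same-numbered arrays' deviations were 0.21, 0.24 and 0.77 between WNT4 and Cre, every one over 0.1, which the labels do not explain. The reported fit has no block, and the counts with it stand beside it. The correlations were -0.08, 0.01 and 0.35 between WNT4 and GFP and -0.04, -0.31 and 0.31 between Cre and GFP. In every comparison the arrays numbered 3 had the highest value, and the labels tie same-numbered arrays by the number alone. Alternatives were other scalings, a filter on dim probe sets, averaging each gene's probe sets, an intensity trend, the arrays of a pair of groups alone, a replicate block and each array left out. Promoter sequences are from RefSeq (GRCm38.p6).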

Additional observations from a re-analysis of the deposited data

How the results depend on the processing

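Among the members past an unadjusted p of 0.05, 0 changed direction under any alternative run. Against GFP, 282 of their WNT4 values stayed on the same side of that level and 39 did not, and against Cre these were 135 and 43. The members were picked by that same level in the main fit. Runs that leave out an array of the group not compared keep both compared means, so their directions could not change. Part of this tally was thus fixed in advance. Leaving out 1 array at a time gave a median WNT4 difference from GFP of 0.61 to 1.16, 10 to 20 members at an unadjusted p under 0.05 and 0 to 8 after adjustment. For Cre against GFP the median ran from 0.11 to 0.33, the count from 0 to 2 and the adjusted count from 0 to 0. For WNT4 against Cre these were 0.36 to 0.83, 5 to 17 and 0 to 0. In these runs 3486 to 7578, 591 to 2404 and 1434 to 4610 of all 45037 probe sets passed an unadjusted p under 0.05, by comparison. With the arrays of the compared groups alone, 4 members were higher at an unadjusted p under 0.05 in Cre against GFP (1.69% of all probe sets). In WNT4 against Cre 5 were higher (3.65%) and 1 lower. Averaging a gene's probe sets gave a median WNT4 difference from GFP of 0.60, since dim probe sets then enter. With the replicate block 1 member was higher at an unadjusted p under 0.05 in Cre against GFP (1.75% of all probe sets). In WNT4 against GFP 20 were higher (10.7%) and 1 lower, and in WNT4 against Cre 13 were higher (5.91%) and 1 lower. Medians with the block were 0.95, 0.23 and 0.55 for WNT4 against GFP, Cre against GFP and WNT4 against Cre, and the block changed no other call. Without all arrays numbered 3, an alternative chosen after seeing the data, these medians were 0.73, 0.10 and 0.76. The cause of these shifts was not tested. The 12 members with a mean under 6 lie near the arrays' background, which limits what their values show.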

Other observations

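Further interferon-induced genes of the wider list are named here after their values were seen, and of these Ifitm3, Ifitm2, Parp9 and Dtx3l were highest on WNT4 1. Ifitm3, a membrane protein that blocks viral entry, read 8.36, 8.50 and 8.03 on the GFP arrays, 10.07, 9.06 and 10.19 on the Cre arrays and 11.70, 9.80 and 10.10 on the WNT4 arrays. All Cre and WNT4 arrays of this gene lay above all GFP arrays. Its relative Ifitm2 read 10.60, 10.68 and 10.11, then 10.95, 10.83 and 10.85, then 11.16, 10.80 and 9.80 in the same order. Ifitm1 was highest on Cre 1, at 7.74, and between 5.27 and 5.96 on the other arrays.

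Parp9 and Dtx3l, partners in a ubiquitin ligase complex, were also highest on WNT4 1. Parp9 read 7.50, 7.42 and 7.79 on the GFP arrays, 7.83, 8.04 and 8.44 on the Cre arrays and 9.94, 8.44 and 9.20 on the WNT4 arrays. Dtx3l read 6.97, 7.06 and 7.58, then 7.14, 7.36 and 8.01, then 8.62, 7.49 and 8.25. Tnfaip3, a brake on NF-kappaB signalling, read 5.02, 6.10 and 8.07 on the GFP arrays, 5.94, 5.78 and 10.19 on the Cre arrays and 7.16, 5.90 and 10.87 on the WNT4 arrays. In every group, GFP included, it was highest on the array numbered 3. Cxcl10 and Ccl5 stood out on Cre 3 and WNT4 3.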
